A study of Mus musculus with 8 samples.

Results

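The genes described here are 10 transcription factors of sensory neurons: Runx1, Zeb2, Nfib, Nfia, Prox1, Bcl11a, Isl1, Pou4f1, Klf7 and Tlx3. They were taken by symbol from a table of 43372 gene symbols, and all 10 were found and passed the filter on low counts. They were proposed with their counts in the Sst and Trpv1 libraries already known, so their differences between these groups are given as descriptions with no test.

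The data are RNA sequencing of pools of neurons picked by hand from dorsal root ganglia (DRG) of C57Bl/6 mice, with 4 samples from each of the genotypes Ssttm2.1(cre)Zjh/J and Trpv1tm1(cre)Bbm/J. These are the Sst-IRES-Cre and Trpv1-IRES-Cre lines, in which Cre is made from the locus of the somatostatin gene or of the gene for the capsaicin-gated channel. At postnatal day 2 the pups of both lines received 10 µL of virus into the abdominal cavity, either AAV9-CAG-FLEX-eGFP-WPRE, which encodes a green protein, or AAV9-CAG-FLEX-tdTomato-WPRE, which encodes a red one, so all samples carry a virus whose reporter is made only after Cre has acted. The mice, of both sexes, were 3 to 5 weeks old when fluorescent cells were picked, 150 to 250 per sample. The labels used here do not say how many mice a sample holds. The groups are called the Sst and the Trpv1 libraries below. They hold the cells in which Cre acted after the injection, whatever those cells transcribe at the time of picking, and the fluorophore used in each sample is not named in the labels used here. The samples are called independent in the labels, and p-values measure the spread between them.

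Sensory neurons of the DRG acquire their identity in steps. Isl1, a LIM-homeodomain protein, and Pou4f1 (also called Brn3a), a POU-homeodomain protein, act in nearly all of them and end the early neurogenic programme. Runx1, a runt-domain protein that binds DNA with its partner Cbfb, then acts in the nociceptor lineage, where it is needed for many receptors and channels of pain and itch. Tlx3, a homeodomain protein, acts beside Runx1 in that lineage, and Klf7, a Krüppel-like zinc-finger protein, is needed by nociceptive neurons. Zeb2 is a zinc-finger and homeodomain repressor that binds E-boxes. Nfia and Nfib are nuclear factor I proteins, which work in late steps of neuronal and glial maturation. Prox1 is a prospero homeodomain protein known from the lymphatic endothelium, lens and hippocampus, and Bcl11a a zinc-finger repressor known from the fetal globin switch and from cortical and spinal neurons.

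To show where letters of these factors' binding motifs stand near each other's start sites, windows of 250 bases before to 50 bases after a start site were read from RefSeq on GRCm38.p6. The table held 14 windows for 9 of the 10 genes (all but Nfib). In 8 of the 14, the 4 printed ones included, the 50 bases after the start lie in a GENCODE M21 transcript of the gene, and in the others, such as that of Nfia, they do not. Both strands were searched for 6 motifs, none of which overlapped another in these windows. The runt motif TGTGGT matched 1 of the 14 windows and 16.8% of all 32851 windows. The nuclear factor I motif TTGGCA matched 4 of 14 (3 sites, since 2 overlapping Zeb2 windows hold the same one) and 14.1% of all, and the Zeb E-box CAGGTG matched 2 of 14 and 20.2% of all. CTAATG, a motif of Isl proteins, matched 1 of 14 and 7.36% of all, while the Pou4f motif ATAATTAAT (0.274% of all) and the Klf motif GGGTGTGG (3.56% of all) matched 0 of 14. A match is a description of letters and not of binding. The 4 stretches of 150 bases that end at the start site and hold a match are shown because they put letters of Zeb2, Nfia, Nfib and Isl1 motifs beside Runx1, Zeb2, Pou4f1 and Klf7. They are printed 5′ to 3′ on the gene's strand (minus for all 4), with the matched letters in capitals.
Zeb2, chr2:45113280-45113429: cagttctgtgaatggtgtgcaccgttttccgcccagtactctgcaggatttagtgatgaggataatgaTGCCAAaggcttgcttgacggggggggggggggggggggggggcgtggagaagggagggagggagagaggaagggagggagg
Runx1, chr16:92826075-92826224: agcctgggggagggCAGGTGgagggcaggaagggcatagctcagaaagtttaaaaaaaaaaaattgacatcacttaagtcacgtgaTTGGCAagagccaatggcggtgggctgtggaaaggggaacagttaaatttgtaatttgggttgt
Pou4f1, chr14:104468000-104468149: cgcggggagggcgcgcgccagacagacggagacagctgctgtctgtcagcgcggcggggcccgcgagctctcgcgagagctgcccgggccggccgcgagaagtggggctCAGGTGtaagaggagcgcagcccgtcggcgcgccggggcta
Klf7, chr1:64121390-64121539: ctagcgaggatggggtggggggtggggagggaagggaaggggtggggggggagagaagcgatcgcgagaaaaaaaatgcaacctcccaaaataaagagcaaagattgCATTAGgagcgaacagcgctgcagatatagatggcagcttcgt
The Runx1 stretch lies before the distal of its 2 start sites in that table and holds an E-box at −136 and a nuclear factor I motif at −64. In the 50 bases after that start site the runt motif stands on the opposite strand at +29 and +37. The windows also differ in CpG content: the distal Runx1 window holds 2 CpG in 300 bases and the Pou4f1 window 57, against a median of 7 over all windows. Counts per gene do not say which start site was used.

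Sst libraries held 9021125 to 12153109 counts in total and Trpv1 libraries 7419027 to 9568508. Pan-neuronal genes such as Snap25 and Tubb3 summed to 5791 to 6474 CPM (counts scaled to library size) in Sst and 3866 to 4610 CPM in Trpv1 libraries, where 1 of the 7 passed the test (Snap25, higher in Sst). The nociceptor channel gene Scn10a was counted in all 8, so the labelled tissue has its defining markers. Macrophage genes were scarce: 0 of 7 passed the filter, their sum was 0.109 to 26.2 CPM, and C1qa was at 0 counts throughout. Fibroblast genes summed to 437 CPM in Sst replicate 4 and 56.4 to 326 CPM elsewhere. The pituitary genes Gh and Prl held 937 to 11494 counts each in Sst replicate 2 and Trpv1 replicates 1, 2 and 3 and at most 1 count in the other 4 libraries. Xist, made from the inactive X chromosome, was at 0 counts in Trpv1 replicates 1 and 2 and at 4240 to 12659 counts in the other 6.

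The 10 genes fell into a set that stood much higher in the Trpv1 libraries (Zeb2, Nfib, Prox1 and Bcl11a), Klf7 with a smaller difference the same way, and 5 genes with smaller fitted differences and overlapping groups (Runx1, Nfia, Isl1, Pou4f1 and Tlx3), as the plot of the genes by library shows. Across all genes 751 of 11828 (6.35%) passed the test between groups (edgeR quasi-likelihood F test, adjusted p under 0.05), and 391 of them (3.31% of all) were higher in the Trpv1 libraries. Of the 10 factors 5 were among those 391 and 0 among the 360 that were higher in the Sst libraries (3.04% of all). At an unadjusted p under 0.05 edgeR also gave 0 in that direction, as did DESeq2 and limma voom after adjustment. Because the genes were proposed with this contrast known, nothing is read from the count of 5. Bcl11a, with 0, 0, 7 and 0 counts in the Sst libraries, passed the filter on low counts through the Trpv1 libraries alone. Prox1, at 0 counts in Sst replicates 3 and 4, also needed the Trpv1 libraries to pass it. These limits hold for the count of 5 and, for Bcl11a, for the count of genes without overlap. CPM values of the groups did not overlap for 4 of the 10 genes, all with the Trpv1 libraries above. This held for 11.1% of all genes, 5.71% with Trpv1 above and 5.43% with Sst above. The median log2 fold change (Sst over Trpv1, log2FC below) was −0.43 over the 10 genes and 0.01 over all genes, and the median absolute value was 0.55 over the 10 and 0.53 over all. The count of 5 became 3 (Zeb2, Nfib and Prox1) without any of Sst replicates 1, 2 and 3 or Trpv1 replicates 3 and 4, 3 (Zeb2, Nfib and Bcl11a) in the 6 libraries with Xist, and 2 with the earlier quasi-likelihood estimator of edgeR (Zeb2 and Nfib), which called 493 genes in all (4.17%).

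**Figure D1:**
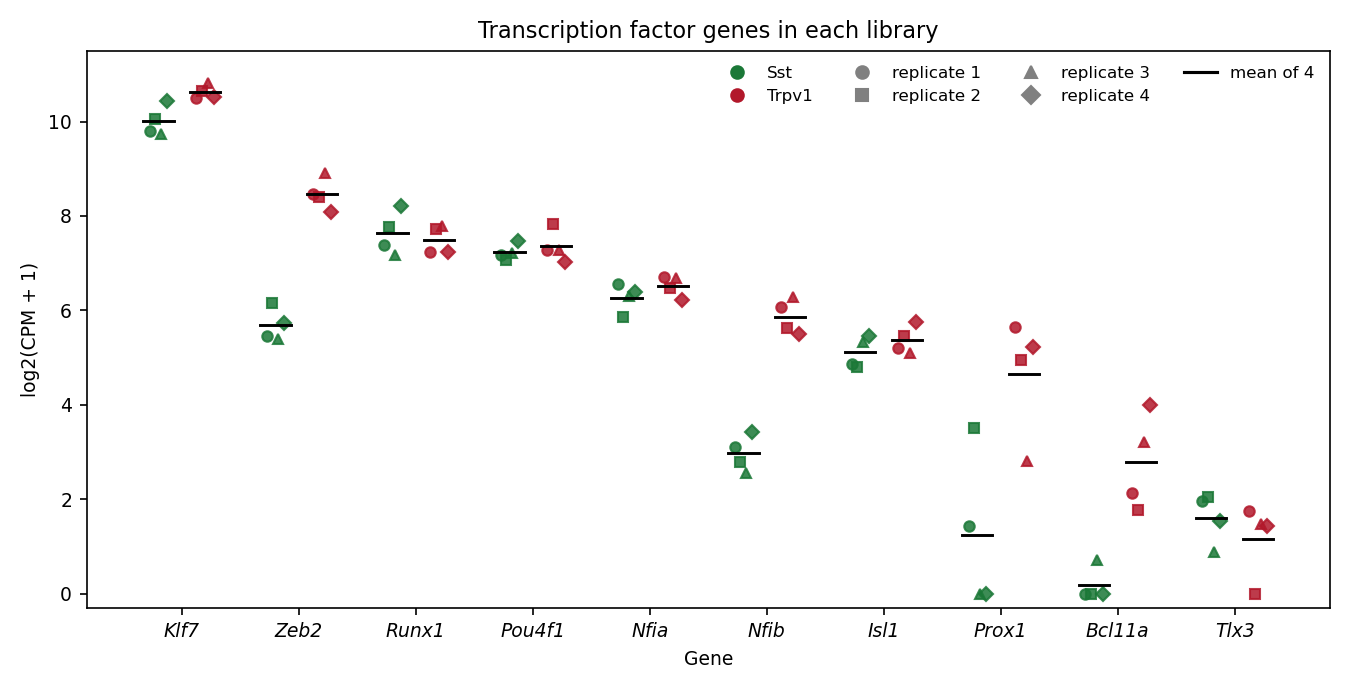
Level of the 10 transcription factor genes in each library, as log2(CPM + 1), with 4 Sst and 4 Trpv1 libraries (symbols give the replicate number) and a bar at the mean of the 4 log2 values. Zeb2, Nfib, Bcl11a and Klf7 show no overlap between the groups, while Prox1 does, through Sst replicate 2 and Trpv1 replicate 3.

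Zeb2 (chromosome 2, 44983632 to 45117395, minus strand) was far higher in the Trpv1 libraries. It stood at 42.7, 70.6, 40.8 and 52.5 CPM in Sst replicates 1 to 4. In Trpv1 replicates 1 to 4 it stood at 350.3, 337, 477 and 271 CPM. Every Trpv1 library was above every Sst library, by a ratio of means of 6.94, and the fitted log2FC was −2.80 (SE 0.259). It kept to −2.96 to −2.54 under all 19 alternative analyses. The overlapping antisense gene Zeb2os held 8 counts in the Sst and 2 in the Trpv1 libraries, against 2096 and 12330 of Zeb2.

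Zeb1, the closest relative of Zeb2 and likewise an E-box repressor, did not follow it. Zeb1 stood at 113 ± 6.36 CPM in Sst libraries, against 114 ± 28.1 CPM in Trpv1 libraries (± SD, 4 libraries each), with a log2FC of −0.01 (SE 0.253, edgeR's adjusted p = 0.983). The ratio of Zeb2 to Zeb1 counts within a library, which no scaling affects, was 0.357, 0.659, 0.378 and 0.448 in the Sst libraries. In the Trpv1 libraries it was 3.12, 3.16, 3.11 and 3.16. The Trpv1 libraries thus held nearly the same ratio although their Zeb2 CPM spread 1.76-fold. A fuller set of such ratios is plotted for each library.

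Nfib (chromosome 4, 82290173 to 82705750, minus strand) was the next. It stood at 7.57, 5.89, 4.91 and 9.79 CPM in the Sst libraries and at 66.1, 48.1, 76.5 and 43.9 CPM in the Trpv1 libraries. The groups did not overlap, the ratio of means was 8.33 and the fitted log2FC −3.05 (SE 0.444). Nfia (chromosome 4, 97772734 to 98118874, plus strand), a paralog that binds the same DNA letters, stood at 92.7, 56.9, 77.7 and 82.4 CPM in Sst libraries, against 103, 88.1, 102 and 73.9 CPM in Trpv1 libraries. Its groups overlapped, with a log2FC of −0.24 (SE 0.274), and the value was 0.23 in the 4 libraries without Gh and Prl, of which only replicate 4 is a Trpv1 library, so that this value has no Trpv1 replicates. The other members of the family did not pass the test: Nfic stood at 170.4 ± 19.4 and 195 ± 30.0 CPM and Nfix at 7.55 ± 7.62 and 8.08 ± 1.65 CPM (log2FCs −0.20 and −0.06, edgeR's adjusted p = 0.681 and 0.972). Nfib took 1.94% to 3.41% of the summed CPM of the 4 Nfi genes in the Sst libraries and 13.2% to 20.2% in the Trpv1 libraries. The Nfia to Nfib ratio was 8.42 to 15.8 in the Sst and 1.33 to 1.83 in the Trpv1 libraries.

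Zeb2, Nfia and Nfib are also made by glia. The 10 listed genes of satellite glia and Schwann cells summed to 620, 519, 586 and 852 CPM in the Sst and to 1062, 875, 814 and 699.8 CPM in the Trpv1 libraries. The ranges overlapped, 0 of the 10 passed in edgeR after adjustment (2 at an unadjusted p under 0.05), and 0 passed in DESeq2 or voom. Sox10, the defining factor of these glia, stood at 5.98 to 12.6 CPM in the Sst and 2.23 to 4.86 CPM in the Trpv1 libraries, the reverse order to Zeb2 and Nfib. The part of glial RNA in the values of Zeb2 and Nfib was not tested beyond this. In pooled cells fewer cells of a type and less RNA per cell cannot be told apart.

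**Figure D2:**
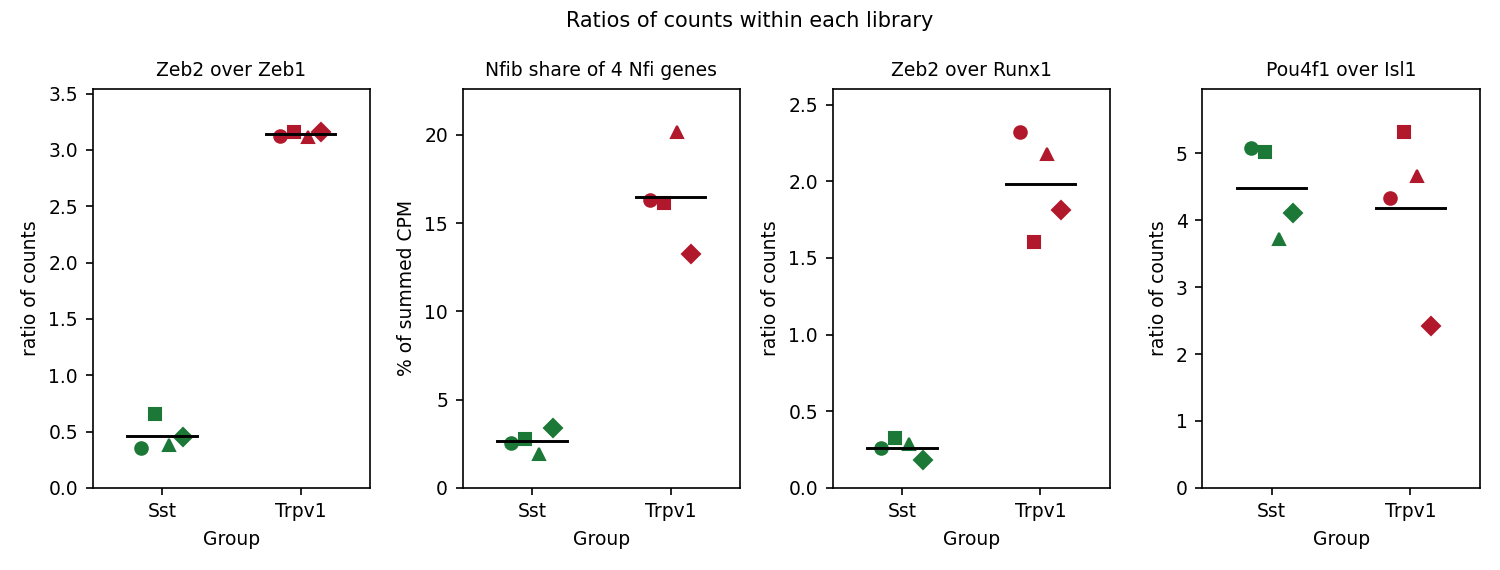
Ratios within each library for Zeb2 over Zeb1, Zeb2 over Runx1 and Pou4f1 over Isl1 (counts), and the share of Nfib in the summed CPM of Nfia, Nfib, Nfic and Nfix, for 4 Sst and 4 Trpv1 libraries (bars are means, and symbols give the replicate as in the plot of genes by library). The groups separate in every panel but that of Pou4f1 over Isl1.

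Prox1 (chromosome 1, 190118035 to 190170714, minus strand) varied more within groups. It stood at 1.69, 10.5, 0 and 0 CPM in the Sst libraries and at 49.2, 29.9, 5.97 and 36.2 CPM in the Trpv1 libraries. Sst replicate 2 held 96 of the 113 counts of its group and lay above Trpv1 replicate 3, so the groups overlapped. The fitted log2FC was −3.46 (SE 0.795), and −5.80 without Sst replicate 2. Sst replicate 2 and Trpv1 replicate 3 are libraries with pituitary counts, and in the 4 libraries without such counts, 3 Sst libraries against the 1 Trpv1 library of replicate 4, the value was −6.01. The lymphatic genes Lyve1 and Flt4 stood highest in Sst replicate 4, at 35.1 and 27.2 CPM, where Prox1 had 0 counts. In the other libraries Lyve1 stood at 0 to 0.299 CPM in Sst and at 1.02 to 8.17 CPM in Trpv1 libraries. Flt4 was at 0 counts in all Trpv1 libraries. Over all libraries the log2FC of Lyve1 was 1.02 (SE 1.03, edgeR's adjusted p = 0.636). Its sign rests on Sst replicate 4, which held 387 of the 391 Lyve1 counts of the Sst libraries. The 7 listed endothelial and lymphatic genes, Lyve1 and Flt4 included, summed to 6.67 to 77.0 CPM in Sst libraries. Their sum was 6.22 to 30.2 CPM in Trpv1 libraries, so the ranges overlapped. The part of lymphatic cells in the Prox1 values was not tested. The spread of Prox1 within groups (SD 2.16 of log2 CPM) was above the median of the 100 genes nearest in mean level (1.22).

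Bcl11a (chromosome 11, 24078056 to 24174123, plus strand) was nearly confined to the Trpv1 libraries, at low counts. Its counts were 0, 0, 7 and 0 in the Sst libraries and 33, 19, 65 and 141 in the Trpv1 libraries. In CPM it stood at 0.649 in Sst replicate 3 and at 3.41, 2.43, 8.25 and 15.0 in the Trpv1 libraries, so the groups did not overlap. The fitted log2FC was −5.33 (SE 1.37), and −4.65 without Trpv1 replicate 4. That library, the highest, had 0 counts of the listed pituitary genes. The ratio of means over all libraries was 44.8, and it rests on Sst replicate 3, without which the Sst group held 0 counts. Bcl11b, the paralog, stood at 3.99 ± 4.90 CPM in Sst libraries, against 18.2 ± 5.20 CPM in Trpv1 libraries (± SD, 4 libraries each), a log2FC of −2.20 that did not pass (SE 0.684, edgeR's adjusted p = 0.0554).

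Klf7 (chromosome 1, 64029447 to 64122282, minus strand) was the most abundant of the 10. It stood at 893, 1056.5, 851 and 1385 CPM in the Sst libraries and at 1456, 1598, 1810.1 and 1457 CPM in the Trpv1 libraries. The groups did not overlap, and Sst replicate 4 lay closest to the Trpv1 libraries. The ratio of means was 1.51 and the log2FC −0.59 (SE 0.171). Its place among the genes past the threshold was lost in 13 of 19 alternative analyses, among them the removal of any library but Sst replicate 4. The log2FC was −0.76 without Sst replicate 4 and reached −0.49 without Sst replicate 3, the ends of its range over the 8 removals.

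**Figure D3:**
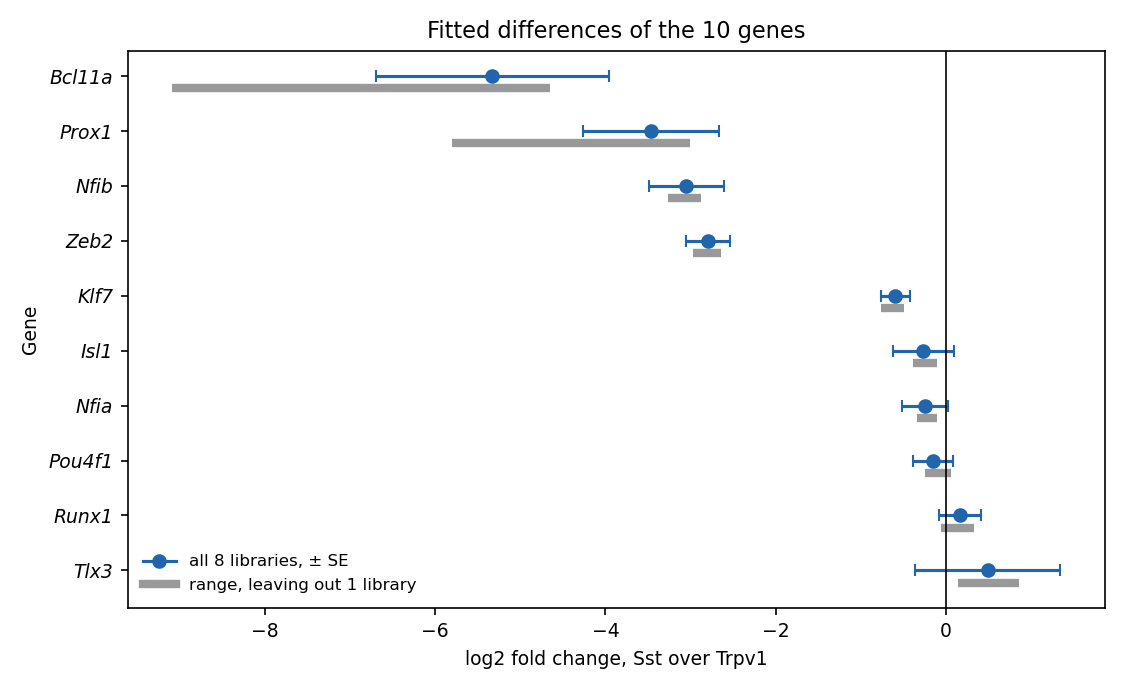
Fitted log2 fold change (Sst over Trpv1) of the 10 genes from all 8 libraries, with its SE, and below each point the range of the value when 1 library is left out in turn. Zeb2, Nfib, Prox1, Bcl11a and Klf7 lie below 0 over their whole range, Isl1 and Nfia between −0.39 and −0.10, and Runx1 and Pou4f1 cross 0. The far end of the Bcl11a range rests on a group with 0 counts and is no size.

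Of the factors of nociceptor and general sensory identity, Runx1, Pou4f1, Isl1 and Tlx3 overlapped between groups, while Klf7 did not. Runx1 (chromosome 16, 92601466 to 92826149, minus strand) stood at 166, 216, 144 and 293 CPM in Sst libraries, against 151, 210.1, 219 and 149.5 CPM in Trpv1 libraries. The groups overlapped, and the log2FC of 0.17 (SE 0.249) became −0.06 without Sst replicate 4, the highest library. An antisense gene that shares 106 exon bases with Runx1, Gm26626, held 105 counts in that library and 0 to 19 in the others, against 3236 of Runx1. Runx1 varied within groups by an SD of 0.38 of log2 CPM, where the 100 genes nearest in level had a median of 0.29.

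Pou4f1 (chromosome 14, 104461676 to 104467999, minus strand) stood at 143, 134, 147 and 176 CPM in Sst libraries, against 154, 228, 155 and 129 CPM in Trpv1 libraries. Its log2FC was −0.15 (SE 0.239) and turned to 0.06 without Trpv1 replicate 2 and to 0.10 in the 6 libraries with Xist. Isl1 (chromosome 13, 116298281 to 116309689, minus strand) stood at 28.1, 26.7, 39.5 and 42.7 CPM and at 35.6, 42.8, 33.3 and 53.3 CPM, a log2FC of −0.26 (SE 0.359). Both genes overlapped between groups and were among the steadier genes of their level, with within-group SDs of 0.27 and 0.32 against medians of 0.36 and 0.57 for the 100 genes nearest in level. Tlx3 (chromosome 11, 33200752 to 33203589, minus strand) was scarce, at 2.89, 3.16, 0.834 and 1.90 CPM in Sst libraries, against 2.38, 0, 1.78 and 1.70 CPM in Trpv1 libraries. With 88 and 53 counts per group its log2FC of 0.50 was smaller than its SE of 0.852. Overlapping groups do not show that these genes are at the same level.

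Levels were compared between genes only per length, as CPM per kilobase of annotated exon. In the Sst libraries the order was Klf7 (129 ± 29.9), Pou4f1 (32.1 ± 3.88), Runx1 (17.0 ± 5.53), Isl1 (8.65 ± 2.03), Nfia (7.11 ± 1.38), Zeb2 (2.59 ± 0.685), Tlx3 (1.43 ± 0.689), Nfib (0.471 ± 0.143), Prox1 (0.362 ± 0.598) and Bcl11a (0.0123 ± 0.0246), all SD with n = 4. The ranges of Isl1 and Nfia overlapped, as did those of each neighbouring pair from Zeb2 down. In the Trpv1 libraries Klf7 (194 ± 20.5) and Pou4f1 (35.6 ± 9.16) again led, and Zeb2 came next at 18.0 ± 4.30. There the ranges of Zeb2, Runx1 (15.2 ± 3.10), Isl1 (10.4 ± 2.27) and Nfia (8.43 ± 1.27) overlapped from each to the next. Nfib (3.92 ± 1.02), Prox1 (3.61 ± 2.16), Tlx3 (0.955 ± 0.667) and Bcl11a (0.551 ± 0.435) followed, also overlapping from each to the next. Per kilobase Zeb2 was above Runx1 in 0 of 4 Sst libraries and in 3 of 4 Trpv1 libraries, and in Trpv1 replicate 2 it stood at 16.9 against 17.5 for Runx1. The ratio of Zeb2 to Runx1 counts, not scaled by length, was 0.179 to 0.327 in the Sst and 1.60 to 2.32 in the Trpv1 libraries. The ratio of Pou4f1 to Isl1 counts was 3.72 to 5.08 in the Sst and 2.42 to 5.32 in the Trpv1 libraries.

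The genes whose profiles over the 8 libraries lay closest to each factor were sought among 6986 genes by the root-mean-square difference of centred log2 CPM. Zeb2 and Nfib were near neighbours of each other (0.361). Smpd3, a sphingomyelinase gene, lay at 0.357 from Zeb2, and Basp1, a growth-cone protein gene, at 0.401 from Nfib. Bcl11a was followed most closely by Npy1r, a neuropeptide Y receptor gene (0.797), and Cd44, a hyaluronan receptor gene (0.899). Npy1r stood at 2.66 ± 1.42 CPM in Sst libraries, against 76.0 ± 66.2 CPM in Trpv1 libraries and Cd44 at 22.6 ± 9.14 and 298 ± 77.9 CPM. Prox1 had no close neighbour: Pkib, a protein kinase A inhibitor gene, and the nicotinic receptor subunit gene Chrna7 lay at 1.26 and 1.36. For the other abundant factors the neighbours lay within 0.0864 to 0.141: Sec63 and Prrc1 for Runx1, Tppp and Reps2 for Nfia, Grik4 and Ptprn for Isl1, Fbxo11 and Clcn3 for Pou4f1, and Pik3c2a and Arhgap26 for Klf7. Irgm2 and Tada3 lay at 0.301 and 0.461 from Tlx3. Genes that differ between groups are close to each other by that difference alone, so these distances describe 8 libraries and no more.

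Family relatives of the 10 factors were listed to see which other members of each family these neurons held. Of 28 relatives 22 were tested: 2 passed as higher in Sst, 0 as higher in Trpv1 and 20 did not pass, with a median log2FC of −0.04 (also with Runx3 at its lower bound). That is 9.09% called, against 6.35% of all genes. This list and those below were chosen with earlier results of these data known, so nothing is read from their shares. Runx3, the runt factor of proprioceptive and other myelinated lineages, held 52, 47, 98 and 56 counts in the Sst libraries and 0 in all Trpv1 libraries. At 6.12 ± 1.98 CPM it was at least 70.9-fold higher (the floor being 3 counts in the whole group; edgeR's adjusted p = 0.0128, and 0.0521 without Trpv1 replicate 3). That floor covers counting error only, since these reads carry no molecular identifiers. Runx3 passed the filter on low counts through the Sst libraries alone, and with no filter the adjusted p in edgeR was 0.0165. Pou4f2, the POU factor best known from retinal ganglion cells, stood at 12.9, 9.59, 8.34 and 13.5 CPM in the Sst libraries. In the Trpv1 libraries it stood at 0.621, 0.384, 0.508 and 0 CPM, a log2FC of 4.85 (SE 1.05, edgeR's adjusted p = 0.00508). Its counts there were 6, 3, 4 and 0, so it too passed the filter through the Sst libraries alone. With no filter its adjusted p in edgeR was 0.00388. The calls of Runx3 and Pou4f2 were lost in the 6 libraries with Xist (adjusted p = 0.147 and 0.0922). In the Trpv1 direction 5 relatives had an unadjusted p under 0.05 in edgeR, DESeq2 called 2 (Klf6 and Klf10) and voom 1 (Klf6). Isl2, the paralog of Isl1, stood at 24.2 ± 4.29 and 22.9 ± 8.42 CPM (log2FC 0.07, edgeR's adjusted p = 0.950), and Tlx1 had 0 counts in all libraries.

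Of 25 listed proteins that work with runt, LIM-homeodomain, Zeb and Bcl11 factors 23 were tested. Of these, 1 was higher in the Trpv1 libraries, 0 were higher in the Sst libraries and 22 did not pass, with a median of 0.05. The called share was 4.35%, against 6.35% of all genes. DESeq2, voom and the unadjusted p in edgeR also gave 0 toward the Sst libraries. The 1 was Cbfb, the DNA-binding partner of all runt factors. It stood at 153, 114, 138 and 111 CPM in Sst libraries, against 274, 205, 286 and 216 CPM in Trpv1 libraries. The groups did not overlap (log2FC −0.93, SE 0.227, edgeR's adjusted p = 0.0133), and the call was lost without Sst replicate 2 or Trpv1 replicate 1 (adjusted p = 0.0547 and 0.0594) and in the 6 libraries with Xist (0.103). Across the 19 alternatives this p lay between 0.000993 and 0.558.

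Of 36 other transcription factors of the sensory lineage, 35 were in the table and 26 were tested. Of these, 1 was higher in the Sst and 1 in the Trpv1 libraries and 24 did not pass, with a median of 0.01. The called share was 7.69%, against 6.35% of all genes. Onecut2, a cut-homeodomain factor, stood at 198, 274, 182 and 142 CPM in Sst libraries, against 51.9, 99.5, 125 and 45.7 CPM in Trpv1 libraries, with no overlap (log2FC 1.32, SE 0.305, edgeR's adjusted p = 0.00895, and 0.122 in the 6 libraries with Xist). Sox11, a factor of young and regenerating neurons, stood at 14.1 ± 2.61 and 39.7 ± 18.3 CPM (SD, n = 4 each; log2FC −1.49, SE 0.445, edgeR's adjusted p = 0.0459). The call of Sox11 was lost without any library but Trpv1 replicates 1 and 2 (adjusted p from 0.0523 to 0.168). Prdm12, a nociceptor factor, stood at 312 ± 110.4 and 294 ± 63.6 CPM (edgeR's adjusted p = 0.893), and the early neurogenic genes Neurog1 and Neurog2 were at 0 counts in all 8 libraries.

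Genes known to need Runx1 in nociceptors were listed to set them beside Runx1. Of 13 listed names, 12 were in the table and 10 were tested. In edgeR 4 were higher in the Trpv1 libraries, 0 were higher in the Sst libraries (0 also by the unadjusted p, DESeq2 and voom) and 6 did not pass, with a median of −0.95. That is 40.0% called, against 6.35% of all genes. Nothing is read from this share, since the list was chosen with earlier results of these data known. Trpa1, the irritant-gated channel gene, stood at 19.5, 9.92, 6.39 and 21.9 CPM in Sst libraries, against 162, 205, 144 and 240.3 CPM in Trpv1 libraries (log2FC −3.70, SE 0.349, edgeR's adjusted p = 1.6e-07). The itch receptor genes Mrgpra3 and Mrgprx1 had log2FCs of −4.76 and −3.57 (adjusted p = 1.36e-07 and 9.35e-06), and members of that family resemble each other, so their counts are uncertain. Ret, the receptor of glial cell line-derived factors, stood at 193 ± 53.2 and 395 ± 59.7 CPM (−1.03, SE 0.228, edgeR's adjusted p = 0.00592, and 0.0871 in the 6 libraries with Xist). Mrgprd, the marker of another unmyelinated class, stood at 14.7 ± 4.72 and 15.0 ± 8.47 CPM (edgeR's adjusted p = 0.992).

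Receptors of neurotrophic factors, on which the survival of sensory neurons depends, were listed as well. All 8 listed were tested: 2 passed as higher in Sst, 4 as higher in Trpv1 and 2 did not pass, with a median of −0.91. That is 75.0% called, against 6.35% of all genes. This list too was chosen with earlier results of these data known, so nothing is read from the share. Ntrk2, the receptor of brain-derived neurotrophic factor, stood at 392, 453, 467 and 325 CPM in Sst libraries, against 97.8, 71.9, 86.4 and 27.1 CPM in Trpv1 libraries (log2FC 2.53, SE 0.288, edgeR's adjusted p = 2.57e-06). Ntrk3, the receptor of neurotrophin-3, stood at 68.6 ± 19.8 and 4.23 ± 3.79 CPM (4.01, SE 0.542, edgeR's adjusted p = 2.17e-05; 4.78 without Trpv1 replicate 4). Gfra3, the artemin co-receptor, and Ngfr, the shared neurotrophin receptor, were higher in the Trpv1 libraries, with log2FCs of −3.01 and −1.20 (adjusted p = 2.83e-05 and 0.00249, the latter 0.113 in the 6 libraries with Xist). Ret, higher in the Trpv1 libraries, is also on the list of genes that need Runx1.

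**Figure D4:**
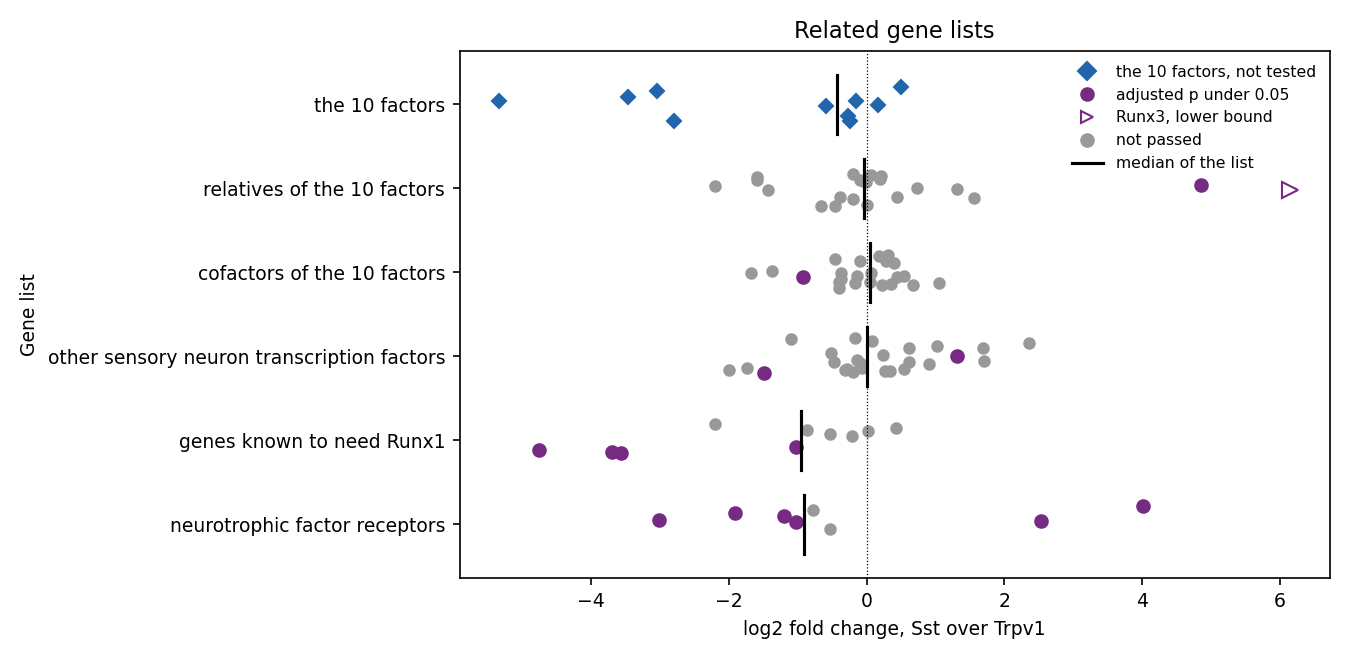
Fitted log2 fold change (Sst over Trpv1) of each tested gene in the 10 factors and in 5 related lists, with the median of each list as a bar and genes past an edgeR adjusted p of 0.05 in purple (the 10 factors are shown without a test). Medians lie near 0 for relatives, cofactors and other sensory factors (−0.04, 0.05 and 0.01) and at −0.95 and −0.91 for genes that need Runx1 and neurotrophic receptors; Runx3 is drawn at its lower bound.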

How the data were processed

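RNA was measured in 8 samples, 4 per genotype. The authors deposited raw counts of reads per gene symbol. Per the submitters' processing notes, bcl2fastq 2.17, Trimmomatic 0.33 and featureCounts were used on GRCm38. Nothing used here names the aligner, annotation, strand setting or treatment of multiply matching reads, and so reads of overlapping antisense genes cannot be told apart. Pools were amplified before library construction, which can add spread to scarce genes.

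The 10 genes and all lists were chosen with earlier results of these data known. Counts were scaled by TMM, filtered with filterByExpr (minimum count 10, leaving 11828 of 21959 genes with counts) and tested in edgeR 4.0.16 under R 4.3.3, using its robust quasi-likelihood F test with the estimator of edgeR 4, group as sole term, two-sided, adjusted by Benjamini-Hochberg over all genes at 0.05. SEs come from the fold change and F. A prior count of 2 went into log2 CPM. The script was tested on simulated data. Genes were named by rule: the 10 factors, the 2 nearest profiles per factor and called members of the lists. Outside relatives and cofactors at most 4 called members were taken per list. Other listed genes and markers, such as Zeb1, Nfic, Bcl11b, Prdm12 and Mrgprd, were named beside these outside the rule. Some members of the lists are counted but not reported here by name. Drgx, Adgre1 and Tafa4 (listed also as Fam19a4) matched no symbol. Exon lengths and positions come from GENCODE M21. Replicate numbers are shared by the groups, but same-numbered samples did not deviate together (correlations −0.03 to 0.03), so no pairing was used. Pairs of libraries within groups differed by 40.0 to 100.0 times counting error (chi-square per degree of freedom). Alternatives were RLE scaling, a stricter filter (CPM of 5 or more in 4 libraries), no filter, voom of limma 3.58.1 with sample weights, DESeq2 1.42.0, non-robust estimates, a replicate block, a term for Xist, the 6 libraries with Xist, each library left out, and, chosen after seeing the data, the earlier estimator and the 4 libraries without Gh and Prl.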

Additional observations from a re-analysis of the deposited data

Results flagged for a closer look

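In 6 of the groups of 4 libraries checked for the genes named by rule, 1 library stood apart from the other 3. There were 84 such groups, and chance flags about 1 in 20. For Prox1 it was Sst replicate 2, at 10.5 CPM against 0 to 1.69 CPM in the other Sst libraries. For Bcl11a it was Sst replicate 3, at 0.649 CPM against 0. Runx3 stood at 9.08 CPM in Sst replicate 3 against 5.08 to 5.18 CPM, and Ntrk3 at 39.3 CPM in Sst replicate 4 against 75.5 to 82.0 CPM. Npy1r stood at 174.6 CPM in Trpv1 replicate 4 against 32.9 to 51.4 CPM. Bcl11a was also highest in that library, but Npy1r was named for its likeness to the Bcl11a profile, so this is no separate result. Fbxo11 stood at 151 CPM in Sst replicate 4 against 122 to 124 CPM.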

How the results depend on the processing

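Zeb2, Nfib, Prox1, Bcl11a, Klf7, Isl1 and Tlx3 kept the sign of their fold change under every alternative that gave them a value. The count of genes called, 751, was 452 to 747 with 1 library left out (500 without Sst replicate 1, 452 without Sst replicate 3 and 487 without Trpv1 replicate 3), 435 with an Xist term, 305 in the 6 libraries with Xist, 493 with the earlier estimator and 52 in the 4 libraries without Gh and Prl. The 5 factors past the threshold became 3 to 5 with 1 library left out, 3 with an Xist term, 3 in the 6 libraries, 2 with the earlier estimator and 2 in the 4 libraries. The 2 relatives became 1 to 3 with 1 library left out, 4 with DESeq2, 1 with an Xist term, 0 in the 6 libraries and 0 in the 4 libraries. The 1 cofactor became 0 to 2 with 1 library left out, 2 without a filter, 0 with an Xist term and 0 in the 4 libraries. The 2 other sensory factors became 1 to 2 with 1 library left out, 1 with the replicate block, 1 with an Xist term, 1 in the 6 libraries, 1 with the earlier estimator and 0 in the 4 libraries. The 4 genes that need Runx1 became 2 in the 4 libraries. The 6 neurotrophic receptors became 3 in the 6 libraries and 2 in the 4 libraries. The 6-library fit has fewer samples, and the 4-library fit sets 3 Sst libraries against 1 Trpv1 library, which is assumed to vary like the Sst ones and says nothing about Trpv1 replicates; the cause of the other changes was not tested. With the replicate number as a block, which pairs samples that share only a number, 572 genes and 4 of the 10 factors passed, and the call of Sox11 was lost (adjusted p = 0.0806). Counts were low for Bcl11a, Prox1, Tlx3 and Runx3.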
